A study of Brassica rapa subsp. pekinensis with 6 samples.

Results

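Before any temperature treatment, the inbred Chinese cabbage lines Chiifu and Kenshin differed in the probe intensity (PI) of 4128 genes by at least 2-fold at 22 °C. These were taken from the 25376 of 41173 genes on the Br135K microarray whose PI was over 500 in at least 1 of the 22 °C samples. The line ratio was the PI of Kenshin over that of Chiifu, with 50 added to each, and every ratio below is on that scale. The genes were then separated by what the ratio was in the same lines at 12 and 28 °C. A 22 °C only gene was under 2-fold in either direction at both other temperatures, and a kept gene was at least 2-fold in the 22 °C direction at both.

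The study set a line of temperate origin (Chiifu) beside a line of subtropical and tropical origin used in breeding for heat tolerance (Kenshin). Plants of both lines were raised for about 3 weeks at 22 °C in long days, and they were sampled then, after a further 2 days at 12 °C, or after those 2 days and 3 h at 28 °C. The 28 °C plants therefore carried the cold treatment as well, whereas the 22 °C plants carried neither. Shoots of several plants were taken for each condition, and the 6 deposited samples hold 1 array value per line and temperature, so the ratios have no replicate error and no test was possible.

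The heat shock response of plants rests on heat shock transcription factors that raise the transcripts of chaperones, the proteins that keep others folded. Small heat shock proteins (sHSPs) hold unfolding proteins, HSP70 and its DnaJ partners refold them, and HSP101 pulls aggregates apart. Many of these transcripts are low in unstressed shoots and climb within minutes to hours of warming, and the roles given below come from Arabidopsis.

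The deposited distributions of the samples were close, with median PI over all genes between 965 and 1034 and between 57.5% and 58.4% of genes over 500. The control feature of random sequence read 26.9 to 30.5. Over all 41173 genes, the correlation of log2 PI between the lines was 0.948 at 22 °C. It was 0.961 at 12 °C and 0.946 at 28 °C, as a description over genes, which are not independent replicates. No table used here annotates the Bra identifiers, apart from 1 match in RefSeq, so shoot markers could not be checked. Gene names were available for 99 genes, 75 of them tested, and are the names in the paper's lists. In shoots, fewer cells that hold a transcript and less of it per cell cannot be told apart. Probes were designed on Chiifu sequence, so a lower transcript level in Kenshin and a poorer probe match cannot be told apart for a gene that read lower in Kenshin at all 3 temperatures.

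At 22 °C, 1994 genes were at least 2-fold higher in Kenshin, 7.86% of those tested, and 2134 were at least 2-fold higher in Chiifu, 8.41%. In the same 25376 genes, 948 (3.74%) were higher in Kenshin and 1626 (6.41%) in Chiifu at 12 °C, and 2197 (8.66%) and 1870 (7.37%) at 28 °C. The median gene differed 1.27-fold between the lines at 22 °C and again at 28 °C, but 1.20-fold at 12 °C. The lines therefore stood closest at 12 °C by both measures. The median ratio over all tested genes was 1.02 at 22 °C.

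The 2 directions divided differently over the classes. Of the genes higher in Kenshin, 983 (49.3%) were 22 °C only and 422 (21.2%) kept the difference at both other temperatures. Of the genes higher in Chiifu, 634 (29.7%) were 22 °C only and 953 (44.7%) kept it. Kenshin was the higher line in 60.8% of the 1617 genes at 22 °C only and in 30.7% of the 1375 kept genes. The rest kept it at 12 °C alone (152 higher in Kenshin and 230 in Chiifu) or at 28 °C alone (340 and 251), or were at least 2-fold the other way at 12 or 28 °C (97 and 66).

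**Figure D1:**
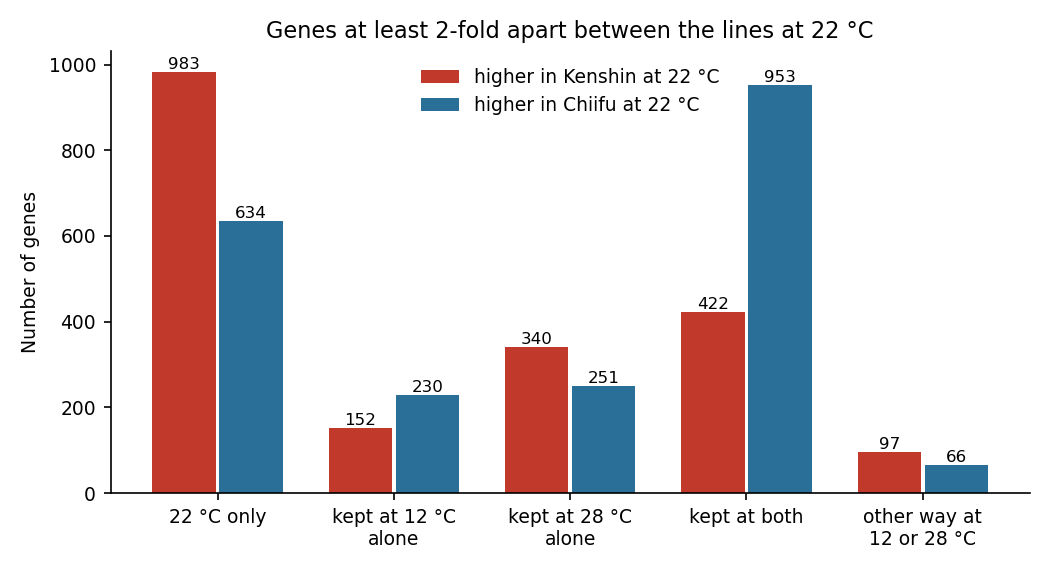
Number of genes (vertical axis) at least 2-fold apart between the lines at 22 °C, by class (horizontal axis), for genes higher in Kenshin (red) and higher in Chiifu (blue), 1 sample per line and temperature. The tallest red bar is the 22 °C only class with 983 genes and the tallest blue bar is the class kept at both with 953.

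Each temperature had genes apart there and nowhere else. Counted the same way in the same 25376 genes, 983 genes were higher in Kenshin and 634 in Chiifu at 22 °C alone, 235 and 260 at 12 °C alone, and 1245 and 472 at 28 °C alone. With the PI minimum applied to any of the 6 samples, which does not favour 22 °C, the counts were 1000 and 653 at 22 °C, 383 and 303 at 12 °C, and 1465 and 560 at 28 °C. Kenshin was thus the higher line more often in genes apart at 28 °C alone than in those apart at 22 °C alone, and at 12 °C the balance turned with the filter.

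The kept genes were further apart than the 22 °C only genes. The median fold at 22 °C was 4.86 in kept genes higher in Kenshin and 6.20 in those higher in Chiifu, against 2.64 and 2.40 in the 22 °C only genes. At least 4-fold at 22 °C were 60.7% and 70.1% of the kept genes, and 19.9% and 9.78% of the 22 °C only genes. At least 16-fold were 57 kept genes higher in Kenshin and 185 higher in Chiifu, of which 32 and 96 were at least 16-fold at all 3 temperatures. Only 4 and 2 of the 22 °C only genes reached 16-fold at 22 °C. The ratios of the 3 temperatures lay within 2-fold of each other in 63.3% of kept genes higher in Kenshin and in 64.0% of those higher in Chiifu.

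Many 22 °C only genes sat just past the limit. The quartiles of their fold were 2.22 and 3.49 where Kenshin was higher and 2.17 and 2.88 where Chiifu was. At 12 °C, 72.7% of the former and 75.9% of the latter were still on the 22 °C side of 1, and at 28 °C 64.7% and 74.1% were. The 2 genes just inside the limit on the Kenshin side had PI of 2126 and 2002 in Chiifu and 4303 and 4056 in Kenshin, and the 2 just outside had 593 and 954 in Chiifu and 1234 and 1956 in Kenshin. On the Chiifu side, the 2 just inside had 11826 and 1534 in Chiifu and 5887 and 742 in Kenshin, and the 2 just outside had 5821 and 1878 in Chiifu and 2886 and 914 in Kenshin.

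**Figure D2:**
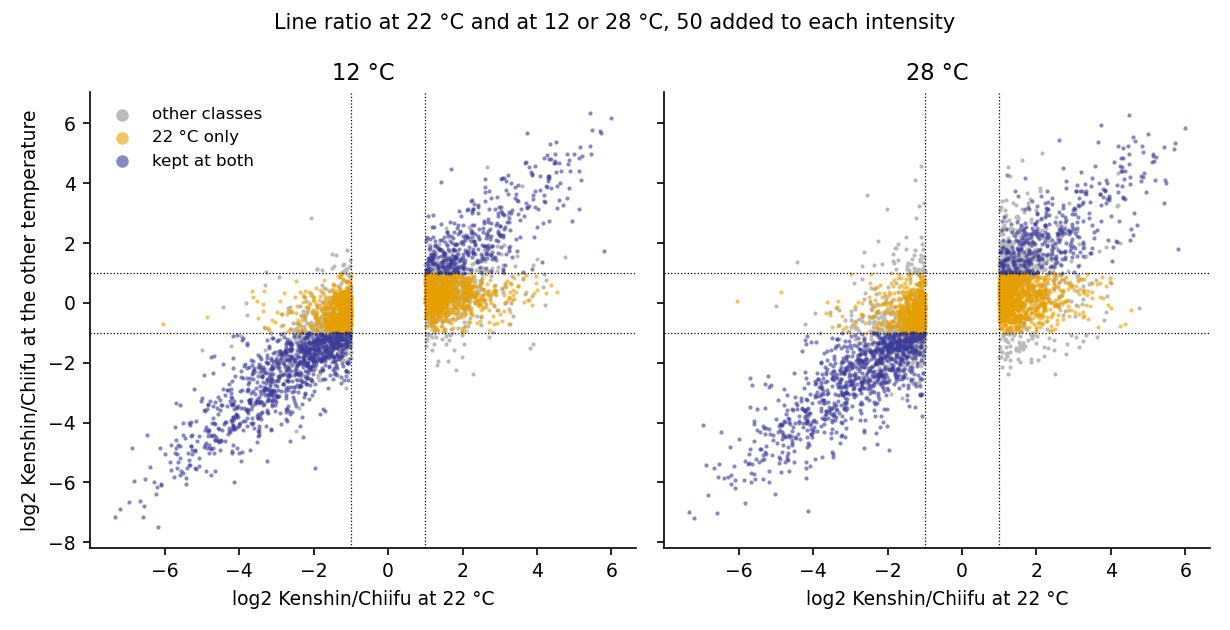
The log2 line ratio at 22 °C (horizontal axes) against that at 12 °C (left) and 28 °C (right) for the 4128 genes at least 2-fold apart at 22 °C, 1 point per gene, with 22 °C only genes in orange, kept genes in dark blue and other classes in grey, and dotted lines at 2-fold. The empty band and the orange block are set by the class limits, and the kept genes spread furthest, to 161-fold higher in Chiifu and 63.5-fold higher in Kenshin at 22 °C.

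Light and growth regulators held some of the widest gaps at 22 °C among the annotated genes. The study singled out 6 of them because their PI in Kenshin was highest at 22 °C and lower after both treatments, so their class is partly set by that choice and is no independent evidence. All 6 were higher in Kenshin at 22 °C, by a median of 7.58-fold, while their median ratio was 0.999 at 12 °C and 1.17 at 28 °C. By the rule, 5 were 22 °C only genes, and 1 COL2 copy stayed past 2-fold at 28 °C.

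HYH is a bZIP relative of HY5 and acts in light-driven seedling development. PI of the HYH copy Bra022225 was 289 in Chiifu and 3262 in Kenshin at 22 °C, 748 and 1179.9 at 12 °C, and 142 and 91.9 at 28 °C, which gave ratios of 9.78, 1.54 and 0.738. The other copy, Bra021258, had 186 and 1328 at 22 °C, 609.6 and 529 at 12 °C, and 203 and 122 at 28 °C, with ratios of 5.83, 0.879 and 0.680. In both copies the 22 °C value of Kenshin was the highest of the 6, and at 28 °C both lines were low with Chiifu the higher.

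The CONSTANS-like genes COL1 and COL2 encode zinc finger proteins related to the flowering regulator CONSTANS, and their transcripts cycle over the day in Arabidopsis. PI of COL1 (Bra023541) was 145 in Chiifu and 1801 in Kenshin at 22 °C, 576 and 661 at 12 °C, and 119 and 170.4 at 28 °C, a ratio of 9.47 at 22 °C and of 1.14 and 1.31 afterwards. COL2 Bra021464 had 162 and 1808, then 415 and 631, then 39.4 and 167, with ratios of 8.75, 1.47 and 2.43. COL2 Bra001043 had 94.6 and 520.2, then 313 and 155, then 55.6 and 63.2, with ratios of 3.94, 0.563 and 1.07. The 3 genes shared the order of HYH in Kenshin, highest at 22 °C and lowest at 28 °C. In Chiifu all 3 were highest at 12 °C. The hour of sampling is not given in the sources used here, and its part in these ratios was not tested.

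GA2OX1 inactivates gibberellin, a growth hormone. PI of GA2OX1 (Bra008362) was 64.5 in Chiifu and 701 in Kenshin at 22 °C, 702 and 349 at 12 °C, and 11.4 and 28.8 at 28 °C. Kenshin was 6.56-fold higher at 22 °C, and the ratios after cold and after warming were 0.530 and 1.28. Chiifu at 12 °C and Kenshin at 22 °C had nearly the same value, and both 28 °C values were near or below that of the random feature.

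**Figure D3:**
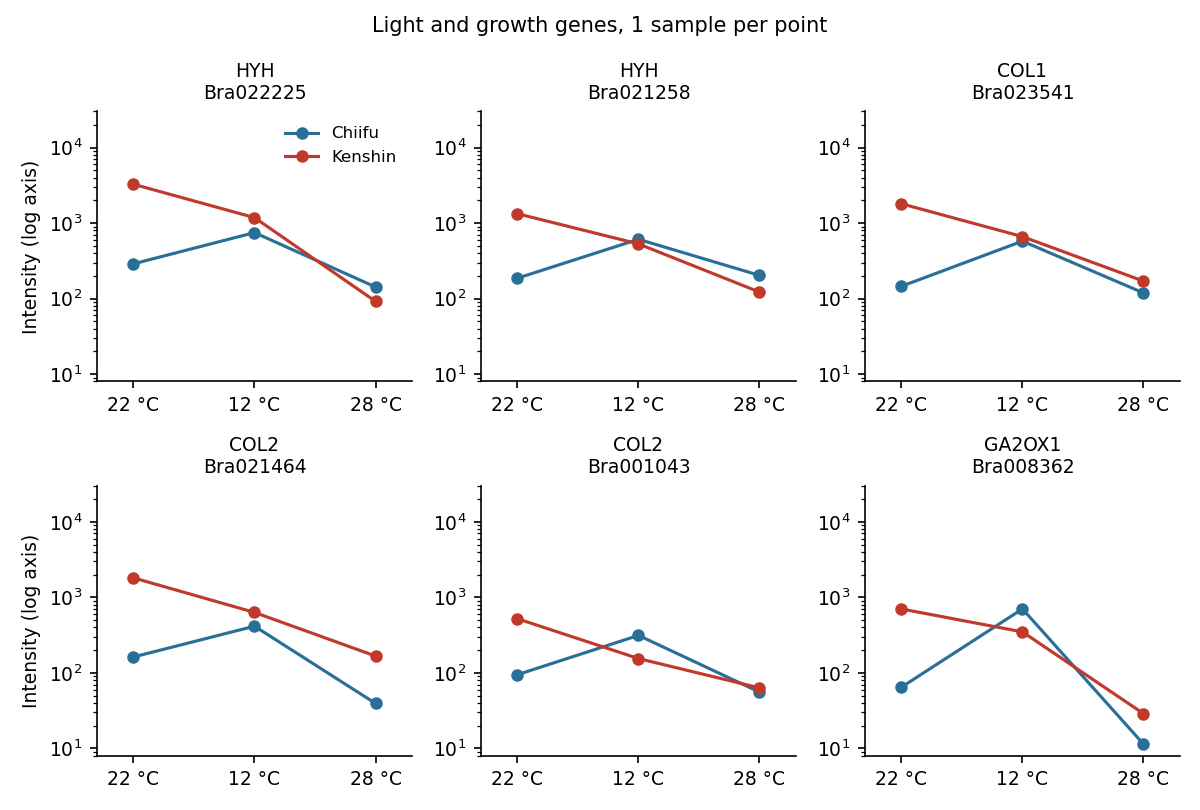
PI (vertical axes, log scale) of 6 light and growth genes at 22, 12 and 28 °C (horizontal axes) in Chiifu (blue) and Kenshin (red), 1 sample per point. In each panel the lines are furthest apart at 22 °C, with Kenshin higher by 3.94-fold to 9.78-fold, and 1 COL2 copy is also 2.43-fold higher in Kenshin at 28 °C.

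The heat shock genes divided by family and by copy. Copies of one gene can be alike in sequence, and how far their probes also read the other copy was not tested. Of 37 heat genes that the study listed by homology to Arabidopsis, 31 were tested, 10 were higher in Kenshin and 2 in Chiifu at 22 °C, and 19 were under 2-fold, with a median ratio of 1.16 against 1.02 over all genes. A second list of 64 genes was selected by the study partly for a 22 °C value at least 2-fold higher in Kenshin in these same samples, and partly for values after warming. It shares 11 genes with the first. Among the 23 tested heat genes outside that selection, 2 were higher in Kenshin (8.70%), 2 in Chiifu (8.70%) and 19 neither. Their median ratio was 0.966, and the shares over all tested genes were 7.86% and 8.41%. The 8 tested genes that the full list shares with the selected list were all higher in Kenshin, as the selection demands. Taking them out lowers the Kenshin share and the median of the rest. Whether heat genes as a group leaned towards Kenshin can thus not be told from the 23.

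HSFB2A is a heat shock factor of class B, the class that lacks the activation domain of class A. Its PI (Bra029292) was 385 in Chiifu and 875 in Kenshin at 22 °C, 374 and 587 at 12 °C, and 3164 and 3814 at 28 °C, with ratios of 2.12, 1.5 and 1.2. The lines were thus closest where both were highest. HSFA2 (Bra000557), a main activator of the sustained response, had 67.7 and 256 at 22 °C and was outside the tested set.

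Of 17 sHSP genes tested, 7 were higher in Kenshin at 22 °C, 2 were higher in Chiifu and 8 were under 2-fold, with a median ratio of 1.14. All 7 came from the list selected on these samples. Of the 10 outside it, 0 were higher in Kenshin and 2 in Chiifu, with a median ratio of 0.766. Taking out genes selected partly for a high 22 °C value in Kenshin lowers the Kenshin count and the median of the rest. The shares over all tested genes, 7.86% and 8.41%, are therefore no measure for these 10. The cytosolic class II gene HSP17.6II (Bra006137), also from the selected list, had the highest ratio of the 17. At 22 °C it read 51.7 in Chiifu and 909 in Kenshin, followed by 271 and 309.8 at 12 °C, and 2513 and 2036 at 28 °C, with ratios of 9.43, 1.12 and 0.814. The 22 °C ratio was 17.58 with nothing added and 6.65 with 100 added. Kenshin at 22 °C exceeded both 12 °C samples and lay below both 28 °C samples. The second copy, Bra008920, went the other way, with 3065 and 1267 at 22 °C, 1599 and 1426 at 12 °C, and 5017 and 3693 at 28 °C. Chiifu was 2.37-fold the higher at 22 °C but only 1.12-fold and 1.35-fold at the others.

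The HSP20-like (HSP20-L) genes past 2-fold at 22 °C were spread over 3 classes, while HSP20-L Bra018216 was under 2-fold with a ratio of 0.718. PI of Bra029174 was 406 in Chiifu and 1657 in Kenshin at 22 °C, 376 and 292 at 12 °C, and 5772 and 7627 at 28 °C, a ratio of 3.75 at 22 °C and of 0.803 and 1.32 at the others. Bra018383 had 1870.0 and 5211, then 2774 and 2428, then 11166 and 19026, with ratios of 2.74, 0.878 and 1.70. In both genes Kenshin was the higher line at 22 °C and slightly the lower at 12 °C.

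Bra018384, with the identifier next to Bra018383, had 2575 and 5906 at 22 °C, 5095 and 5362 at 12 °C and 6789 and 14692 at 28 °C, and its ratio of 2.27 at 22 °C was seen again at 28 °C (2.16) but not at 12 °C (1.05). Bra031725 was like it, with 1996 and 6292, 4409 and 5274, and 5909 and 13449.8, and ratios of 3.10, 1.19 and 2.27. The mitochondrial HSP23.6-MITO (Bra013872) had 333 and 984, 323 and 265, and 1308 and 3551, with ratios of 2.70, 0.845 and 2.65. These 3 genes kept the difference at 28 °C alone.

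Bra030910 kept it throughout, with PI of 827 in Chiifu and 2406 in Kenshin at 22 °C, 945 and 2649 at 12 °C, and 4041 and 9204 at 28 °C, and ratios of 2.80, 2.71 and 2.26. Bra012949 was the mirror case. Its PI was 5473 and 1568 at 22 °C, 4945 and 1799 at 12 °C, and 10796 and 1843 at 28 °C, so Chiifu was 3.41-fold, 2.70-fold and 5.73-fold higher. Kenshin stayed within 1568 to 1843 over the 3 temperatures, whereas Chiifu was highest at 28 °C.

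The 8 sHSP genes under 2-fold at 22 °C had ratios from 0.691 (HSP18.2, Bra006697) to 1.45 (HSP18.2, Bra020295). For both HSP18.2 copies the lines parted at 28 °C, where the ratios were 2.33 and 4.47. HSP22.0-L (Bra000703), under 2-fold at 22 °C with a ratio of 1.14, stood at 2.67 at 12 °C and 3.62 at 28 °C.

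The larger chaperones were more uniform, and all 8 tested had a ratio above 1, with a median of 2.05. Over all 25376 tested genes, 13449 had a 22 °C ratio above 1. Of the 6 not chosen for their 22 °C ratio, 2 were higher in Kenshin, beside 7.86% of all tested genes, and the median was 1.98. Leaving out genes chosen for a high Kenshin value lowers both figures, so the 2 shares are not alike. The 2 HSP70 genes were the furthest apart. PI of Bra001457 was 1559.6 in Chiifu and 9758 in Kenshin at 22 °C, 2512 and 6732 at 12 °C, and 8099 and 13032 at 28 °C, with ratios of 6.09, 2.65 and 1.61. Bra038734 had 1049 and 6488, then 1159 and 4093, then 7871 and 7597, with ratios of 5.95, 3.43 and 0.965. In both the gap was widest at 22 °C, stayed past 2-fold at 12 °C and was under 2-fold at 28 °C, where Chiifu reached its own highest value. These are the 2 genes just counted, from the Arabidopsis list.

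ROF2 is an FKBP-type isomerase that the study lists as a marker of acquired thermotolerance. PI of ROF2 (Bra037477) was 309 in Chiifu and 1632 in Kenshin at 22 °C, 283 and 352 at 12 °C, and 4967 and 6607 at 28 °C, and the ratio of 4.68 at 22 °C was 1.21 and 1.33 at the others. A DnaJ-domain chaperone (Bra027363) had 1333 and 2857, 2129 and 2634, and 5365 and 7477, a ratio of 2.10 at 22 °C and of 1.23 and 1.39 after. The remaining 4 were under 2-fold at 22 °C. Of these, the mitochondrial disaggregase HSP98.7 (Bra007816) at 1.99 and the HSP101 copy Bra015922 at 1.97 lay just short of the limit, and the HSP101 copy Bra003807 was at 1.16.

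**Figure D4:**
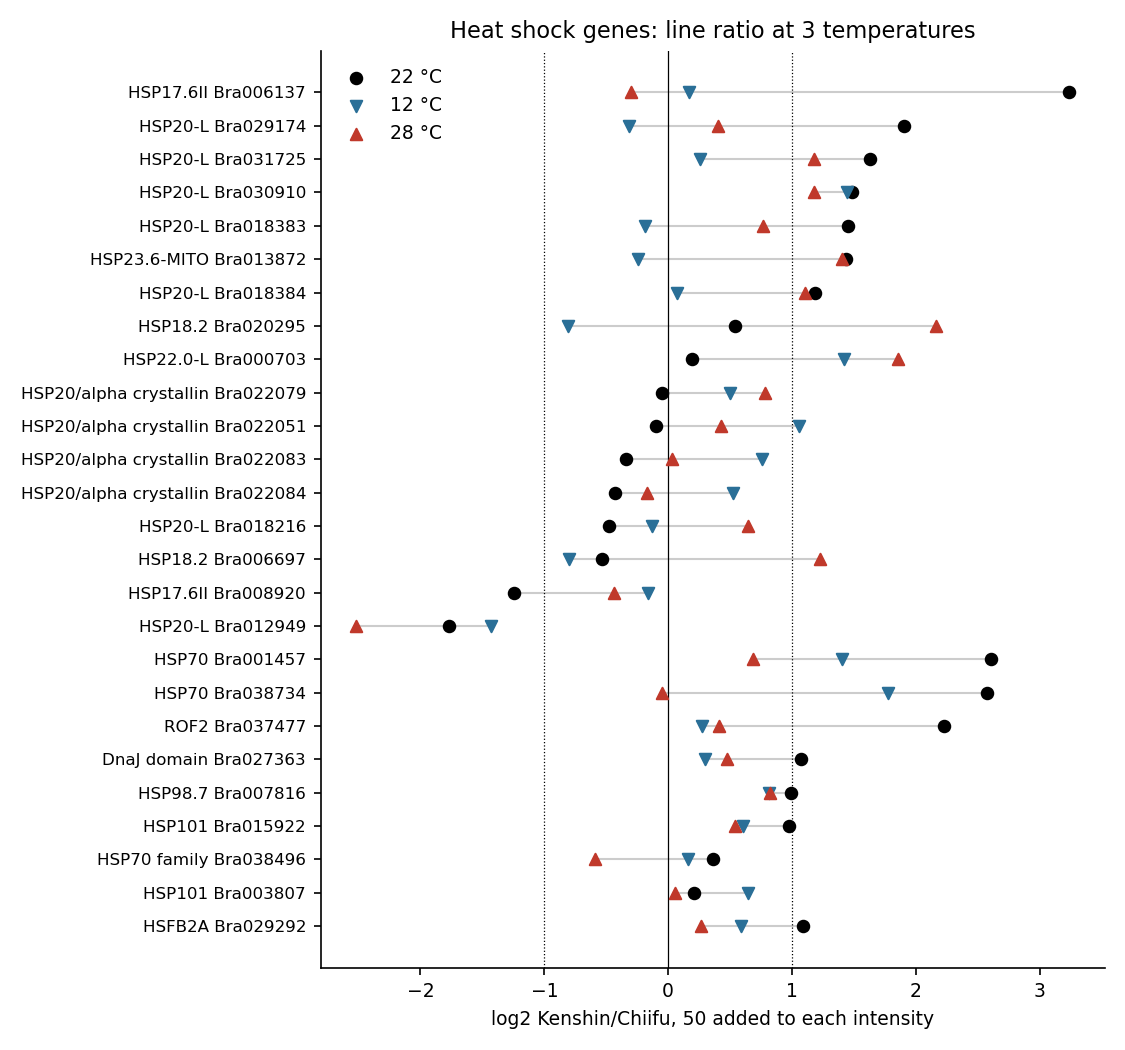
The log2 line ratio (horizontal axis, 50 added to each intensity) at 22 °C (circles), 12 °C (downward triangles) and 28 °C (upward triangles) for the tested sHSP genes (upper block), larger chaperones and co-chaperones (middle block) and HSFB2A (bottom row), 1 sample per line and temperature, with dotted lines at 2-fold. HSP17.6II Bra006137, at 9.43-fold, is the circle furthest right and has both triangles near 0, whereas HSP20-L Bra030910 has all 3 marks together.

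The temperature sensing genes were not apart at 22 °C. The photoreceptor and thermosensor gene PHYB had ratios of 0.589 (Bra001650) and 1.19 (Bra022192), and its partner PIF4, a promoter of growth in warmth, 0.698 (Bra000283) and 0.541 (Bra037742). The 3 copies of the nuclear exportin XPO1A had ratios of 0.927 to 0.999. MPSR1 encodes a RING E3 ligase that senses misfolded proteins. PI of MPSR1-2 (Bra016290) was 7671 in Chiifu and 2674 in Kenshin at 22 °C, 2322 and 1891 at 12 °C, and 8680.3 and 8894 at 28 °C, so Chiifu was 2.83-fold higher at 22 °C and 1.22-fold higher at 12 °C, and the ratio was 1.02 at 28 °C. MPSR1-1 (Bra012441) was 1.71-fold higher in Chiifu at 22 °C.

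Immune receptor genes of the selected list were among those that kept the difference. All 4 tested were at least 2-fold higher in Kenshin at all 3 temperatures. The list was selected for a high 22 °C value in Kenshin and for values after warming. Their direction and their 28 °C ratios thus partly follow from the choice. The 422 kept genes higher in Kenshin among all 25376 tested are therefore no measure for them. PI of RLP22 (Bra021803), a receptor-like protein with leucine-rich repeats, was 163 in Chiifu and 960.4 in Kenshin at 22 °C, 71.9 and 963 at 12 °C, and 201 and 2013 at 28 °C, with ratios of 4.75, 8.31 and 8.22. A leucine-rich repeat kinase gene (Bra030411) had 92.0 and 874, 75.4 and 1051, and 40.6 and 1992, with ratios of 6.51, 8.78 and 22.5. The lowest of these 6 ratios was the 4.75 of RLP22 before treatment. The intracellular receptor genes Bra027594 (TIR-NBS-LRR class) and Bra037453 (CC-NBS-LRR class) had ratios of 2.79 and 2.51 at 22 °C, 2.29 and 3.69 at 12 °C, and 6.51 and 3.14 at 28 °C.

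Metabolic and cell wall genes of the selected list differed in where they kept the difference. Of 9 tested, 8 were at least 2-fold higher in Kenshin at 22 °C, of which 5 kept it at both and 3 at 28 °C alone. The list was selected on 22 °C values and on values after warming, so the direction and the 28 °C ratios partly follow from the choice. The 7.86% of all tested genes is thus no measure for them. SDH2-2 encodes the iron-sulfur subunit of respiratory complex II. PI of SDH2-2 (Bra028469) was 468 in Chiifu and 2517 in Kenshin at 22 °C, 531 and 2395 at 12 °C, and 545 and 6064 at 28 °C, with ratios of 4.95, 4.21 and 10.3. Chiifu was nearly level over the 3 temperatures.

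The cytosolic glutamine synthetase gene GLN1.3 (Bra021276) had 1197 and 2798 at 22 °C, 1053 and 3121 at 12 °C, and 2579 and 7326 at 28 °C, with ratios of 2.28, 2.87 and 2.81. An alpha/beta-hydrolase gene (Bra036841) had 69.2 and 676, 20.6 and 873, and 22.7 and 3074, with ratios of 6.09, 13.1 and 43.0, and its Chiifu values at 12 and 28 °C were below the random feature. The beta-glucosidase gene BGLU23 (Bra034060) had ratios of 3.30, 2.26 and 4.86. By contrast, the laccase gene LAC12 (Bra009111) had ratios of 3.56, 1.09 and 2.36, and a peroxidase gene (Bra017761) 3.40, 1.71 and 10.03.

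Transcription factor genes outside the heat and light groups did not keep the difference at both temperatures. Of 7 tested, 6 were higher in Kenshin and 1 in Chiifu, and 5 of the 6 kept it at 28 °C alone. Those 6 all came from the list selected on 22 °C values and on values after warming, so both their direction and the 28 °C ratios partly follow from the choice, and the 7.86% of all tested genes is no measure for them. The 1 gene from outside that list, the MYB-like Bra006853, was the one higher in Chiifu. The study's text names it among its putative adaptation genes, whereas the list gives Bra002790 under that description. PI of a Dof zinc finger gene (Bra012119) was 488 in Chiifu and 1159 in Kenshin at 22 °C, 1459 and 983 at 12 °C, and 209 and 2746 at 28 °C, with ratios of 2.25, 0.684 and 10.8. LSH10 (Bra016865) had 422 and 1008, 617 and 1013, and 197 and 2079, with ratios of 2.24, 1.59 and 8.62. In both the 28 °C samples differed more than the 22 °C samples, with Kenshin higher and Chiifu at its lowest. The MYB-like gene Bra006853 was higher in Chiifu throughout, by 2.35-fold, 2.46-fold and 1.68-fold in the same order.

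The splicing factor gene SMP1 (Bra023741) had PI of 141 in Chiifu and 664 in Kenshin at 22 °C and ratios of 3.74, 2.27 and 1.42 at 22, 12 and 28 °C. Its gap thus narrowed as in the HSP70 pair. The cap-binding factor gene eIF4E3 (Bra032325) had ratios of 3.88, 2.86 and 4.89. HIPP27 (Bra009662), a heavy metal associated protein gene, stayed past 2-fold but was uneven, at 6.96, 3.28 and 14.3.

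In a RING/U-box gene (Bra025860) the Chiifu signal was near background. It read 27.4 before treatment and after cold, near the random feature, and 59.1 after warming, while Kenshin read 2422, 2404 and 5394. The ratios were 32.0, 31.7 and 49.9, and their size depends on the 50 added, since the 22 °C ratio was 88.5 with nothing added and 19.8 with 100. The gene with the next identifier, Bra025861, which the study lists as not annotated, had 53.1, 58.7 and 147 in Chiifu and 1979, 1928 and 4522 in Kenshin, with ratios of 19.7, 18.21 and 23.2. The order of the 6 samples was the same in both genes, with Chiifu low at every temperature.

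**Figure D5:**
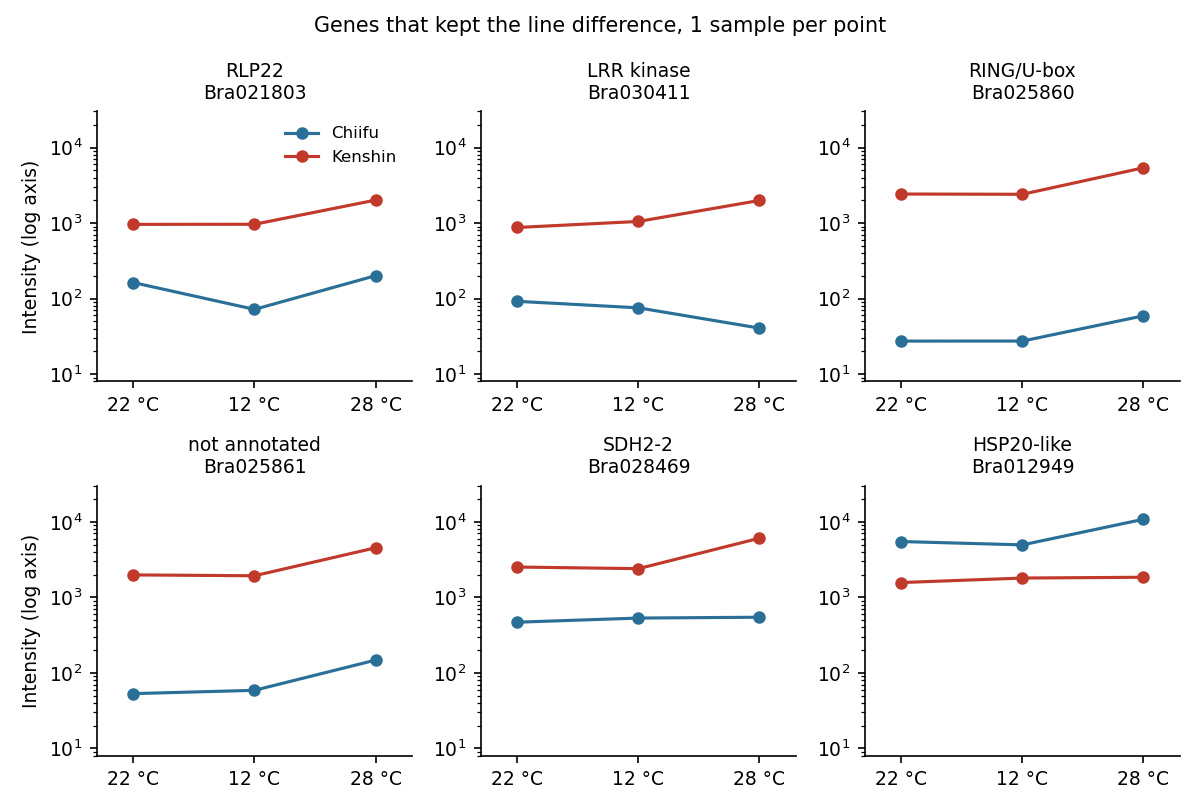
PI (vertical axes, log scale) of 6 genes that kept the line difference at 22, 12 and 28 °C (horizontal axes) in Chiifu (blue) and Kenshin (red), 1 sample per point. Kenshin lies above Chiifu at all temperatures in 5 panels, by 4.21-fold to 49.9-fold, and below it by 2.70-fold to 5.73-fold for the HSP20-like gene Bra012949.

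The widest ratios of each class belonged to genes with no annotation here. Among 22 °C only genes higher in Kenshin, the 6 widest ran from 15.7-fold to 23.4-fold. PI of Bra026356 was 111 in Chiifu and 3721 in Kenshin at 22 °C, 1393 and 1799 at 12 °C, and 239 and 197 at 28 °C, so Chiifu at 12 °C was well above its own 22 °C value. Bra019777 had 84.9 and 2754, 40.7 and 88.7, and 75.1 and 27.3, and only the 22 °C sample of Kenshin stood out.

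Among 22 °C only genes higher in Chiifu, the 6 widest ran from 11.3-fold to 65.6-fold. PI of Bra035742 was 7929 in Chiifu and 71.7 in Kenshin at 22 °C, 5091 and 3105 at 12 °C, and 8516 and 8845 at 28 °C, and Bra017619 had 14150.2 and 436, 13492 and 9723, and 3022 and 3932. In both, the 22 °C sample of Kenshin was by far the lowest of the 6.

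Among kept genes higher in Kenshin, the 6 widest ran from 43.4-fold to 63.5-fold at 22 °C. PI of Bra021726 was 78.0 in Chiifu and 8072 in Kenshin at 22 °C, 71.0 and 8704 at 12 °C, and 113 and 9394 at 28 °C. Bra014170, kept by the rule, was uneven, with 13.0 and 3474 at 22 °C but 41.9 and 254 at 12 °C and 11.4 and 163 at 28 °C, and ratios of 55.9, 3.31 and 3.46. Its Chiifu values at 22 and 28 °C were below the random feature, and the 22 °C ratio was 267 with nothing added and 31.6 with 100.

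Among kept genes higher in Chiifu, the 6 widest ran from 101.5-fold to 161-fold. At 22, 12 and 28 °C, PI of Bra012403 was 11770.1, 12479.9 and 13684 in Chiifu and 23.604, 37.0 and 57.5 in Kenshin. Bra034729 had 9214, 7363 and 8525 in Chiifu and 12.7, 12.9 and 8.90 in Kenshin. All 3 Kenshin values of Bra034729 were below the random feature. Where the Kenshin signal is this low, the size of the ratio depends mostly on the 50 added.

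A lower line at or below the random feature was mostly a property of kept genes. At 22 °C this held for 73 of 953 kept genes higher in Chiifu (7.66%) and 13 of 422 higher in Kenshin (3.08%), against 2 of 634 and 0 of 983 in the 22 °C only classes. The line lower at 22 °C was at or below it at all 3 temperatures in 28 and 4 kept genes. The median PI of the lower line at 22 °C was 309 in kept genes higher in Chiifu and 265 in those higher in Kenshin, but 1093 and 793 in the 22 °C only genes. In 70.7% of the 22 °C only genes higher in Chiifu and 64.1% of those higher in Kenshin both lines were over 500 at 22 °C, against 39.7% and 31.0% of kept genes.

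Differences between the lines were more frequent in tested genes of low mean PI. A gene was tested where either 22 °C sample was over 500, so one of low mean often entered through its higher line, and the share in the lowest group is partly set by that filter. With the tested genes in 5 equal groups by mean PI over the 6 samples, the share higher in Kenshin was 19.9% in the lowest group and 0.768% in the highest, and the share higher in Chiifu 18.4% and 2.27%. For 22 °C only genes higher in Kenshin the shares were 8.47% and 0.552%, and for kept genes higher in Chiifu 9.91% and 0.650%. The part of measurement noise in these shares was not tested, since no separate replicate values were available here.

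For the 22 °C only genes it was next asked which 22 °C sample stood apart from its own line at both other temperatures by at least 2-fold in the direction of the difference. Among the 983 higher in Kenshin, this was the Kenshin sample alone in 254 genes (25.8%), the Chiifu sample alone in 77 (7.83%), both in 2 and neither in 650 (66.1%). Among the 634 higher in Chiifu, it was the Kenshin sample alone in 76 (12.0%), the Chiifu sample alone in 39 (6.15%), both in 2 and neither in 517 (81.5%). In most of these genes neither 22 °C sample stood apart in this way.

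Between 22 and 28 °C, 490 of the 983 genes were at least 2-fold lower in Kenshin and 52 in Chiifu, and between 22 and 12 °C 360 were lower in Kenshin while 252 were at least 2-fold higher in Chiifu. Over all 25376 genes, 1772 were at least 2-fold lower in Kenshin at 28 °C and 1660 at 12 °C, and 889 were higher in Chiifu at 12 °C. These changes use the same 22 °C values that placed the genes in the class, so an approach of the lines is built into them.

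Some genes of a class had consecutive identifier numbers. A gene of the same class carried the number before or after in 152 of 953 kept genes higher in Chiifu (15.9%), 37 of 422 kept genes higher in Kenshin (8.77%), 80 of 983 (8.14%) of the 22 °C only genes higher in Kenshin and 48 of 634 (7.57%) of those higher in Chiifu. Over all tested genes, the share next to a gene of these classes was 4.77%, 2.05%, 4.92% and 3.18%. The longest run was of 5 numbers in the first class. The numbers are names here and not positions, and sequence similarity between neighbours, which could let them share probe signal, was not tested.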

How the data were processed

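The 6 samples were hybridised as Cy3-labelled RNA to the Br135K array, which carries probes designed on Chiifu. The authors deposited 1 linear intensity per gene and sample for 41173 genes and 15 control features, and the submitters' processing notes name RMA. The paper states that the array experiment was repeated on biological replicates and that means were summarized. The labels give 1 sample per line and temperature and no separate replicate values, so each value was used as 1 sample. Precision is limited by the number of arrays, and no spread can be given.

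Values were used as deposited, with a minimum of 500 in a 22 °C sample, 50 added and a limit of 2-fold. Genes named are the 6 widest of each class (2 with identifiers), those the study names that passed the minimum, and those nearest the limit. Members and lists were chosen with earlier results of these data known. Role groups were formed here from the study's descriptions with the values known. The code for class assignment was checked on simulated data with little noise and differences well past the limit in genes of high PI. That check does not cover genes near the limit or of low PI. Alternatives varied the added value, the minimum, the scaling and the fold limit. The steps ran in numpy 2.4.6 and pandas 2.3.3 under Python 3.11.15, with figures from matplotlib 3.10.9.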

Additional observations from a re-analysis of the deposited data

Results flagged for a closer look

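Among 83 genes examined by name, 9 had changes of at least 2-fold in opposite directions in the lines between 22 °C and another temperature, and with 1 sample each these differences were not tested. Over all 25376 genes tested, 41 were higher in Chiifu and lower in Kenshin at 12 °C than at 22 °C, and 20 the reverse, with 75 and 77 at 28 °C. All 5 CONSTANS-like and HYH copies were among the 41. The study chose them for being lower in Kenshin after both treatments, so the Kenshin part of this was set by that choice. As the Kenshin change minus the Chiifu change on the log2 scale at 12 °C, the difference was -2.67 for HYH Bra022225, -2.73 for HYH Bra021258, -3.06 for COL1 Bra023541, -2.58 for COL2 Bra021464 and -2.81 for COL2 Bra001043. HSP17.6II Bra006137 had -3.07, with a 3.16-fold higher value in Chiifu at 12 °C than at 22 °C and a 2.66-fold lower one in Kenshin. The unannotated Bra026356 had -4.19 at 12 °C. At 28 °C, the Dof gene Bra012119 had 2.26 and the unannotated Bra017619 had 5.24. Each difference equals the log2 line ratio at the later temperature less that at 22 °C. Both unannotated genes were named for a wide 22 °C ratio within the 22 °C only class, so their large differences follow from that choice. HSP17.6II and the Dof gene came from the list selected on 22 °C values and on values after warming, so theirs partly do.

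A pair of control features for marker sequence, which no comparison above uses, read higher in Kenshin. On the log2 scale with 50 added, the line ratio at 22 °C was 1.16 for sGFP_Barcds000006 and 1.17 for the feature of that name with the ending AS. The first read 234 in Chiifu and 585 in Kenshin at 22 °C, 154 and 214 at 12 °C, and 255 and 1116 at 28 °C. Of the 14 marker features, 12 were higher in Kenshin at 22 °C, with a median ratio of 1.14, and these 2 were past 2-fold. At 12 °C 11 of the 14 were higher in Kenshin, but at 28 °C 12 of the 14 were lower in Kenshin, with a median ratio of 0.835.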

How the results depend on the processing

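All 6 counts stayed within 1.5 times their value with nothing or 100 added, a minimum of 250 or 1000, quantile normalization, a common median for the samples, and a minimum over any of the 6 samples, the last chosen after seeing the data. A limit of 3-fold gave 936 genes higher in Kenshin at 22 °C and 1167 higher in Chiifu, 533 and 345 at 22 °C only, and 219 and 571 kept at both. Of those 533 and 345 genes, 345 and 139 were in the 2-fold class, since a higher limit also admits genes between 2-fold and 3-fold at 12 or 28 °C. With under 1.5-fold required at 12 and 28 °C, 507 and 281 remained at 22 °C only. With no minimum, 960 genes higher in Chiifu were 22 °C only. No named gene past 2-fold changed direction in 428 recalculated ratios, and 41 ratios moved by over 1.5 times or crossed 2-fold, of which 22 with nothing added. No paired analysis was possible because there is 1 sample per line and temperature, and no sample could be left out for the same reason.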
